A study of Mus musculus with 8 samples.

Results

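The 10 genes described here, Sla, Plek, Fermt3, Coro1a, Ptprc, Laptm5, Lcp1, Vav1, Rac2 and Pfn1, encode signalling and cytoskeletal proteins that most kinds of white blood cell share. They were chosen by name from 18193 genes with a named probe set, with earlier results of these arrays known, and 28 of the 45037 probe sets tested map to them. Each gene is represented by its brightest probe set, that with the highest average over the 8 arrays, and its other probe sets are given as a check. Profiles came from Affymetrix whole-genome arrays of RNA from whole embryo propers on a BALB/c background, in 4 groups of 2 arrays: Runx1 knockout embryos at embryonic day 12 (E12), wild-type embryos at E12, Runx1 knockout embryos at E8.5 and wild-type embryos at E8.5. No tissue-specific deletion is named, so no group isolates blood cells. The labels do not say whether embryos were pooled for an array.

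White blood cells move and engulf by rebuilding actin filaments, and their surface receptors pass signals to this machinery. In textbook terms, receptor engagement activates kinases that the CD45 phosphatase (Ptprc) keeps ready, the exchange factor Vav1 loads the small GTPase Rac2, and Rac2 directs actin assembly with the help of profilin (Pfn1), coronin 1A (Coro1a) and the bundling protein L-plastin (Lcp1). Kindlin-3 (Fermt3) switches on blood cell integrins, pleckstrin (Plek) is a major substrate of protein kinase C in platelets, and Sla and Laptm5 restrain antigen receptor signalling in lymphocytes. Pfn1 differs from the rest in being made by nearly all cells. Runx1 is required for the first definitive blood stem cells, and embryos without it lack definitive blood.

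Start regions are shown for 4 of the genes that hold letters that blood transcription factors are known to bind. That of Ptprc also held such letters and is not printed. RefSeq (GRCm38.p6) gave the 250 bases before the start for 8 of the 10 genes, 11 start regions in all. TGTGGT, the core letters bound by RUNX proteins, was searched on both strands together with TGCGGT, a variant of it, and GAGGAA, the core of the site for PU.1, the myeloid and lymphoid factor. No letters overlap between these motifs in the sequences printed, and the capitals mark them, with TTCCTC being GAGGAA on the other strand.
Fermt3, chr19:7019470-7019719, minus strand: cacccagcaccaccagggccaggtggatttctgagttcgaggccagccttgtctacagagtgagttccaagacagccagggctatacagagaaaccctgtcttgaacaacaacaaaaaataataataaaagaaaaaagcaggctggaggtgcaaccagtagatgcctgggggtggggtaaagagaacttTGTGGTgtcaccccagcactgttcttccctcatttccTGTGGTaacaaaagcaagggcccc
Plek, chr11:17008719-17008968, minus strand: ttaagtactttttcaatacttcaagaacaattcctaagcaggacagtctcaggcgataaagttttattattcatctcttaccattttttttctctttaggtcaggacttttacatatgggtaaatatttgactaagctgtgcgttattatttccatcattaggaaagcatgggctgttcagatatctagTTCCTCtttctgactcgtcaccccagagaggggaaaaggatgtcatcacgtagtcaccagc
Laptm5, chr4:130913066-130913315, plus strand: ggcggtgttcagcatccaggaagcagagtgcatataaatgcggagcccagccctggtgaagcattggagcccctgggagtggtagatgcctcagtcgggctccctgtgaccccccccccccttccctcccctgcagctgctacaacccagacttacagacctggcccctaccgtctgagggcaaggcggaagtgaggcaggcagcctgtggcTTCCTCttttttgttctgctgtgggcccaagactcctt
Vav1, chr17:57278850-57279099, plus strand: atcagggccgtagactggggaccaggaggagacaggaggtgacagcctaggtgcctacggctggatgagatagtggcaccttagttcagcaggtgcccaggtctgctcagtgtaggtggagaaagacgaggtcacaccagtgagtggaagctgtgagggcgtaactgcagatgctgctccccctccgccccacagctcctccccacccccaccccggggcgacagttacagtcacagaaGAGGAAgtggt
Fermt3 held TGTGGT on the printed strand at bases -61 to -56 and again at -24 to -19 from the start, and it was the only 1 of the 11 start regions with either RUNX form. Of 32851 RefSeq start regions of the same length, 18.6% held either RUNX form. GAGGAA stood in 4 of the 11 start regions, at -61 to -56 in Plek, -38 to -33 in Laptm5, -11 to -6 in Vav1 and -158 to -153 in Ptprc, against 23.3% of all start regions. These matches are descriptions of letters, and no binding was measured.

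Expression values are log2 of the deposited array intensities, and differences are knockout minus wild type unless another order is named. Runx1 itself, by its brightest probe set, read 7.10 and 6.86 in E12 knockout embryos, against 7.06 and 6.39 in E12 wild-type embryos, and where its probes lie relative to the disrupted part is not known here, so this checks nothing about the labels. Tissue markers of the embryo proper averaged 7.33 to 7.44 in E12 knockouts and 7.37 to 7.47 in E12 wild types, and 5.86 to 5.95 in E8.5 knockouts and 5.15 to 5.92 in E8.5 wild types. Arrays of E8.5 wild type stood apart in several ways. Trophoblast and decidua markers averaged 8.20 in replicate 1, against 5.76 in replicate 2, and embryo proper markers 5.15 against 5.92. Red-cell markers spanned 6.74 to 8.49 over the 2 arrays. Poly-A control probes averaged 11.9 in replicate 2, and 5.14 to 7.97 on every other array of the series. The 99th percentile of log2 intensity was 10.5 to 11.1 at E12 and 12.2 to 12.3 at E8.5, so differences between stages depend on an unknown scaling. Yolk sac endoderm and liver markers averaged 11.4 to 11.8 in E8.5 knockouts and 10.8 to 11.7 in E8.5 wild types. At E12 they averaged 7.26 to 7.69 in knockouts and 7.25 to 7.51 in wild types. The part of tissue make-up in the differences between stages was not tested.

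At E12 the knockout embryos had lower signal for most of the 10 genes. By the brightest probe sets, 9 of the 10 read lower on average in the knockout, as did 51.2% of all genes, with a median difference of -0.64 against -0.01 over all genes. Both knockout arrays lay below both wild-type arrays for 8 of the 10, a separation that 18.6% of all genes showed in that direction. A moderated t beyond 3 in either direction, the threshold that the study's authors used, was passed downward by 5 genes, Fermt3, Plek, Coro1a, Pfn1 and Rac2, against 0.731% of all genes. None of the 10 brightest probe sets passed an adjusted p of 0.05 (limma, Benjamini-Hochberg over all 45037 probe sets), a mark that 0.0275% of all genes passed downward, while 5 had an unadjusted p below 0.05. Because the genes were proposed with this comparison known, these counts describe them and support nothing further. In whole embryos, fewer cells of a type and less RNA per cell cannot be told apart.

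**Figure D1:**
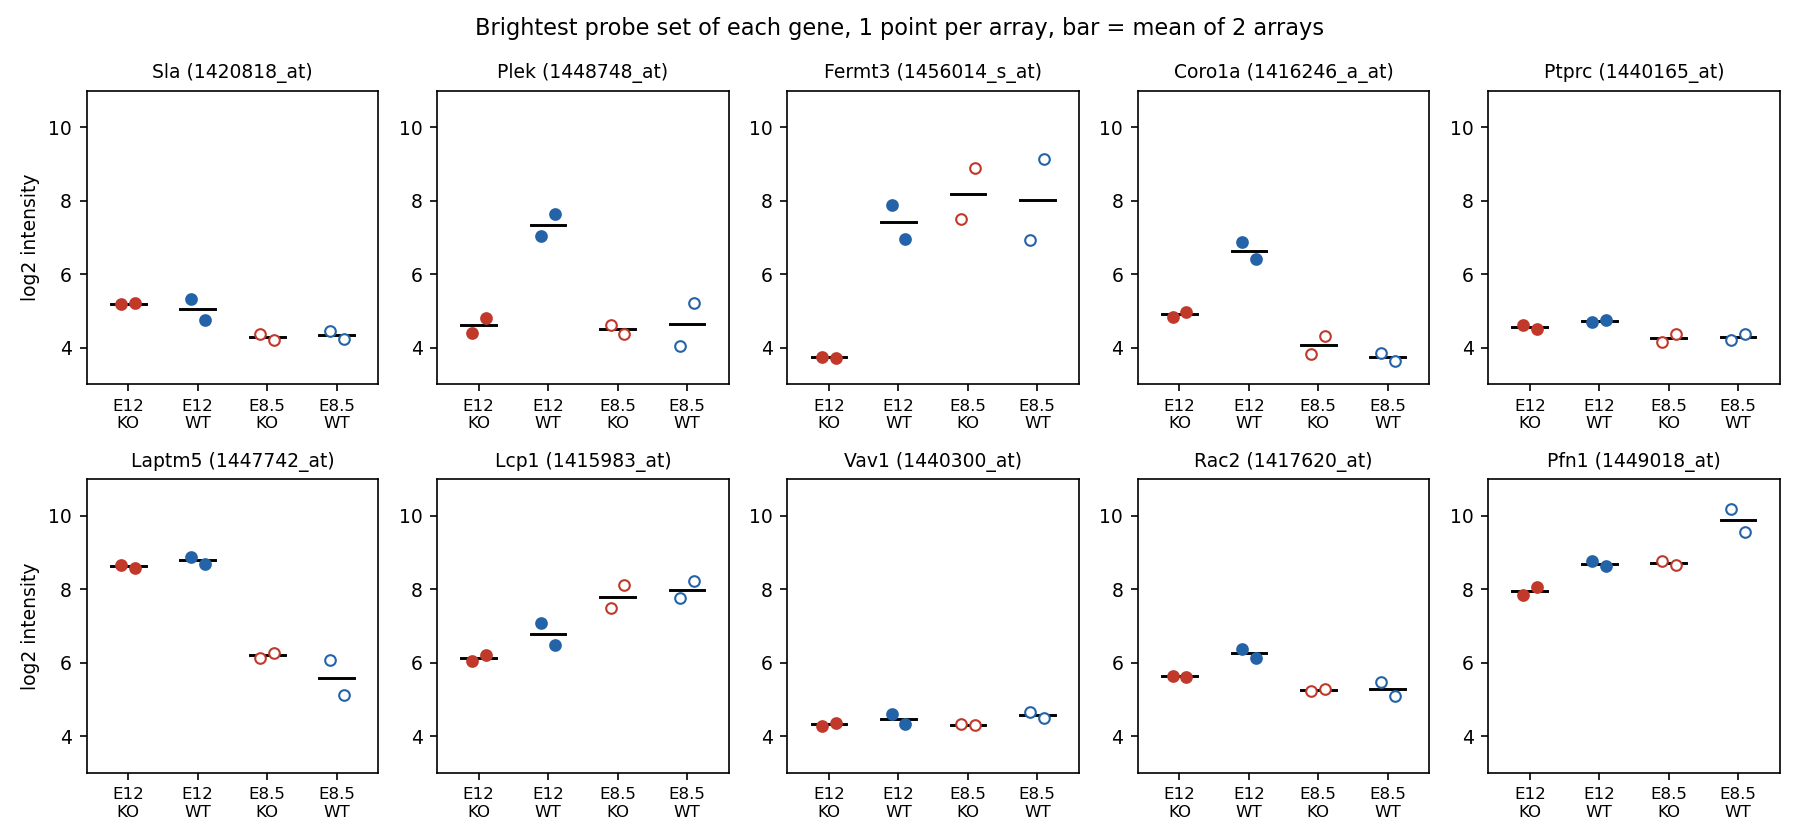
Log2 intensity (vertical axis) of the brightest probe set of each of the 10 genes, with 1 point for each array and a bar at the mean of each group (KO, knockout; WT, wild type). Plek, Fermt3 and Coro1a sit at 3.73 to 4.98 in the E12 knockout arrays and at 6.40 to 7.88 in the E12 wild-type arrays, and Pfn1 is lower in the knockout at both stages.

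Among the integrin and membrane genes, Fermt3 had the largest difference of the 10. Its brightest probe set read 3.75 and 3.73 in E12 knockouts, against 7.88 and 6.95 in E12 wild types, a difference of -3.68 (SE 0.78, moderated t -4.72) or 12.8-fold. The groups did not overlap. The other 3 Fermt3 probe sets differed less, by -1.85 (SE 0.36), -1.23 (SE 0.33) and, for 1443641_at, -0.15 (SE 0.33), the last with overlapping groups. Plek read 4.41 and 4.81 in E12 knockouts and 7.03 and 7.65 in E12 wild types, a difference of -2.73 (SE 0.41, limma adjusted p = 0.699). Its other probe sets differed less, by -0.86 (SE 0.18) and -0.51 (SE 0.24), and both of those also had the knockout arrays below the wild-type arrays.

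Among the actin regulators, Coro1a read 4.83 and 4.98 in E12 knockouts and 6.88 and 6.40 in E12 wild types, a difference of -1.74 (SE 0.25, limma adjusted p = 0.595). A second Coro1a probe set gave -1.97 (SE 0.27), and the remaining one, which stayed between 3.18 and 3.50 on all 8 arrays, gave -0.04 (SE 0.17). Pfn1, with a single probe set, read 7.83 and 8.05 in E12 knockouts and 8.78 and 8.62 in E12 wild types, a difference of -0.76 (SE 0.23). Its moderated t of -3.25 passed 3 in only 8 of the 16 settings run. Lcp1 read 6.06 and 6.20 in E12 knockouts and 7.08 and 6.47 in E12 wild types, which did not overlap but differed by less than the threshold (-0.65, SE 0.31).

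Among the signalling genes, Rac2 read 5.64 and 5.61 in E12 knockouts and 6.38 and 6.13 in E12 wild types, a difference of -0.63 (SE 0.18). Its other probe set differed by -0.06 (SE 0.19) with overlapping groups. Vav1, which activates Rac2, was low in every group: its probe sets stayed between 3.30 and 4.65 on all 8 arrays and differed by -0.14 (SE 0.16) and -0.30 (SE 0.18) at E12. The size of the difference depended on the probe set in several genes, Fermt3, Coro1a and Rac2 among them. In Sla, Ptprc and Laptm5 the brightest probe set was not the one that differed most, and the brightest ones differed by 0.15 (SE 0.22), -0.16 (SE 0.16) and -0.16 (SE 0.30), and for Sla the 2 knockout arrays lay within the range of the wild-type arrays.

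A dimmer Sla probe set, 1420819_at, read 3.77 and 3.55 in E12 knockouts and 6.35 and 6.10 in E12 wild types. It fell by 2.57 on the log2 scale (SE 0.17, 5.93-fold), and was the only 1 of the 28 probe sets called at E12 (limma adjusted p = 0.0325), against 0.0133% of all probe sets called lower. The call was lost when each stage was fitted alone (limma adjusted p = 0.0713), with the replicate number as a block (0.147), and when any 1 of the E12 arrays or the E8.5 knockout arrays was left out (0.208 to 0.658), and it was kept without either E8.5 wild-type array (0.0190). A second Ptprc probe set, 1422124_a_at, read 3.03 and 3.09 in E12 knockouts and 4.01 and 4.33 in E12 wild types, a difference of -1.11 (SE 0.17, limma adjusted p = 0.791). Laptm5 had 5 probe sets, of which 1436905_x_at read 5.09 and 5.53 in E12 knockouts and 9.16 and 8.81 in E12 wild types, a difference of -3.67 (SE 0.40, limma adjusted p = 0.247, and 0.0424 without either E8.5 wild-type array). Of the other Laptm5 probe sets, 1417721_s_at differed by -1.05 (SE 0.22), 1426025_s_at by -0.53 (SE 0.22) and 1459841_x_at by -0.20 (SE 0.18). The brightest Laptm5 probe set read 8.66 and 8.58 in the same knockouts and 8.88 and 8.69 in the same wild types. In Affymetrix names the ending _x_at marks probes that may bind other transcripts and _s_at probes shared by several transcripts, and where each probe set lies on its gene was not examined.

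**Figure D2:**
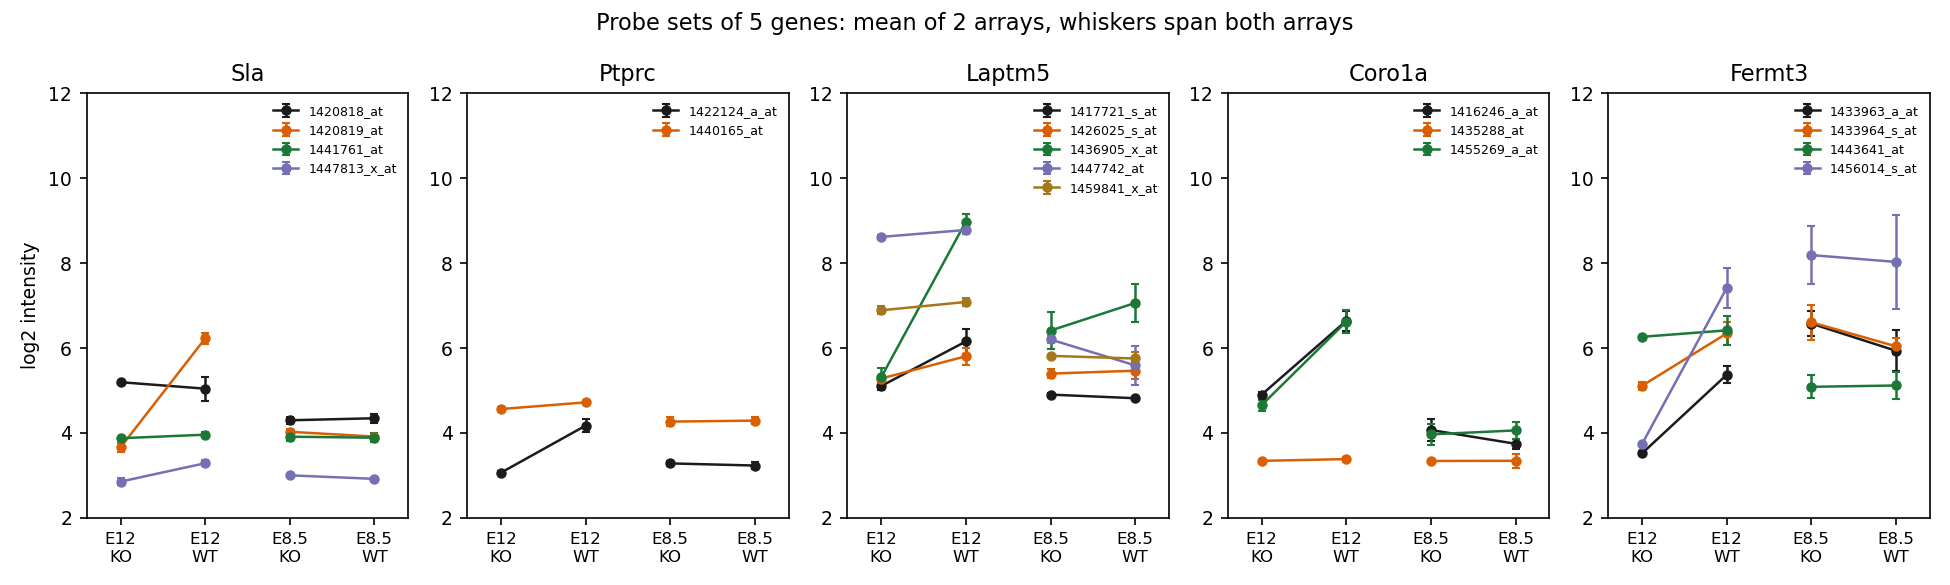
Log2 intensity (vertical axis) of every probe set of Sla, Ptprc, Laptm5, Coro1a and Fermt3 as the mean of 2 arrays per group, with whiskers spanning both arrays. At E12 the Sla probe set 1420819_at and the Laptm5 probe set 1436905_x_at are far lower in the knockout, by 2.57 and 3.67, while the brightest probe sets of the same genes differ by 0.15 and -0.16.

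Over all 28 probe sets, 27 read lower in the E12 knockout on average (47.5% of all probe sets did), with a median difference of -0.58. The 2 genotypes did not overlap for 22 of them, all with the knockout below, against 15.8% of all probe sets. The t threshold was passed downward by 13 and upward by 0, against 0.473% of all probe sets passing downward. Of those 13, 10 passed it in every setting in which they were tested, among them probe sets of Sla, Plek, Fermt3, Coro1a, Ptprc and Laptm5. Of the 10 genes, 8 had at least 1 probe set past the threshold, and Lcp1 and Vav1 had none.

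**Figure D3:**
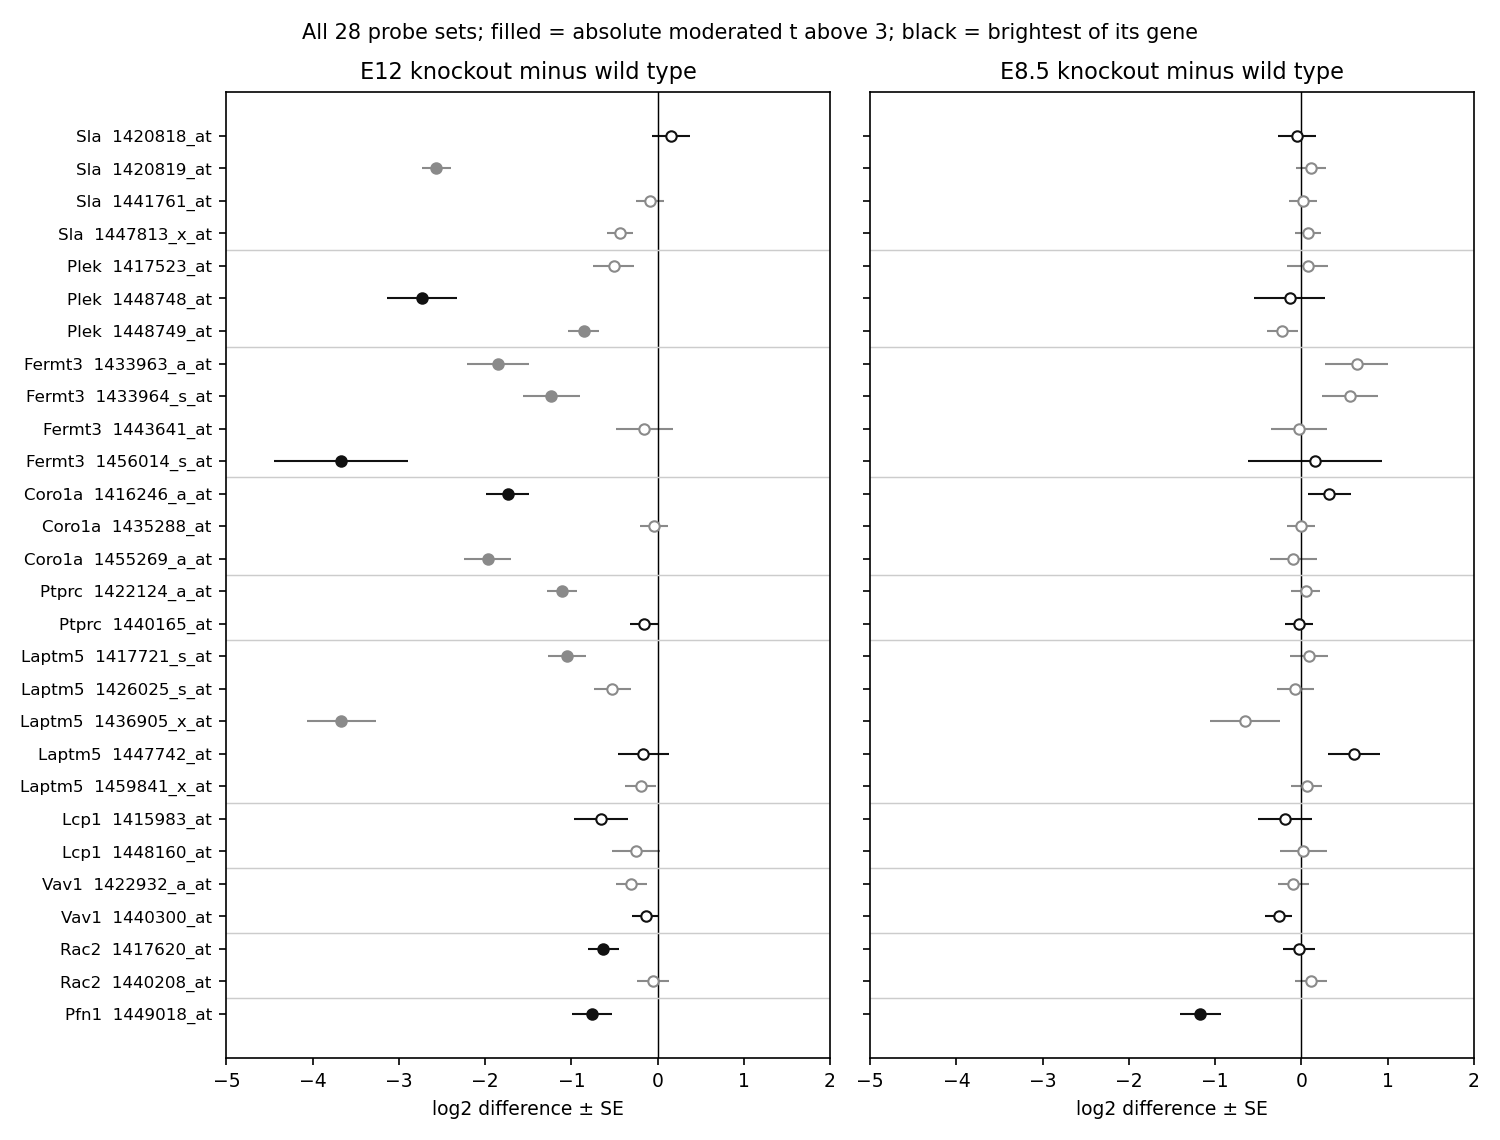
Difference in log2 intensity, knockout minus wild type, with its SE (horizontal axis), for each of the 28 probe sets at E12 (left) and E8.5 (right), with filled points for an absolute moderated t above 3 and black points for the brightest probe set of a gene. At E12 13 points are filled, all below 0, and at E8.5 only Pfn1 is filled, at -1.17.

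At E8.5, in arrays of other embryos, the 10 genes showed no common shift between genotypes. The median difference was -0.04 by the brightest probe sets, against -0.01 over all genes, with 7 genes lower and 3 higher in the knockout (52.3% of all genes were lower). Over the 28 probe sets 14 were lower and 14 higher, against 53.1% lower over all probe sets. Pfn1 alone passed the t threshold (1.26% of all genes passed downward): it read 8.77 and 8.65 in E8.5 knockouts, against 10.19 and 9.57 in E8.5 wild types, a difference of -1.17 (SE 0.23, 2.25-fold). Its limma adjusted p was 0.926 over all arrays. The difference was -0.86 without E8.5 wild type replicate 1, the array with high trophoblast markers, and -1.48 without E8.5 wild type replicate 2. Each of those fits left 1 array in that group. Over all 8 arrays no probe set of the series was called at E8.5, while 2132 had an unadjusted p below 0.05.

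Of the other 9 genes, the genotypes overlapped at E8.5 in 7. Vav1 lay lower in the knockout, by 0.26, and Laptm5 higher, by 0.61 (SE 0.30), and neither passed the threshold. With Pfn1 this made 2 genes with both knockout arrays lower, against 15.6% of all genes, and 1 with both higher, against 13.5%. Plek read 4.62 and 4.38 in E8.5 knockouts and 4.05 and 5.22 in E8.5 wild types, and Coro1a read 3.81 and 4.32 in knockouts and 3.87 and 3.62 in wild types. The Plek values lay near those of the E12 knockouts. Fermt3 was as bright in knockouts as in wild types, at 7.50 and 8.88 in E8.5 knockouts and 6.92 and 9.14 in E8.5 wild types. Replicate 2 was the brighter array in both genotypes, by 1.38 and 2.21, and it was also the array in which actin control probes at the 3′ end exceeded those at the 5′ end by more (2.50 against 1.56 in knockout, 2.61 against 1.48 in wild type). Their part in the Fermt3 spread was not tested.

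Whether the knockout difference itself differed between stages was fitted as an interaction, E12 difference minus E8.5 difference. It was negative for 25 of the 28 probe sets, against 45.4% of all probe sets, and 10 passed the t threshold downward, against 0.426% of all probe sets. By the brightest probe sets it was -3.84 (SE 1.10) for Fermt3, -2.60 (SE 0.58) for Plek and -2.06 (SE 0.35) for Coro1a, and for Pfn1 it was 0.41 (SE 0.33). None of the 28 was called over all 8 arrays, the lowest adjusted p being 0.188 for Sla 1420819_at at -2.68 (limma), and 12 had an unadjusted p below 0.05. Without E8.5 wild type replicate 2, which left 1 array in its group, the interaction was -2.71 for Sla 1420819_at and -2.98 for Fermt3 1433963_a_at. In the fits without 1 array, Plek ranged from -3.18 to -2.02 and Fermt3 from -4.94 to -2.73 by the brightest probe sets. With an intensity trend and robust eBayes, Sla 1420819_at was called (limma adjusted p = 0.0292). The interaction uses the E12 arrays on which the genes were known, so the counts carry the same limit.

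Between stages, Laptm5, Coro1a, Plek and Rac2 were brighter in E12 than in E8.5 wild-type embryos, and Lcp1 and Pfn1 were dimmer. In wild type, 6 of the 10 brightest probe sets were called: 4 higher at E12, against 14.8% of all genes called higher, and 2 lower, against 19.6% called lower. Laptm5 rose by 3.19 (SE 0.30, limma adjusted p = 0.00182), Coro1a by 2.90 (SE 0.25, adjusted p = 0.00144), Plek by 2.70 (SE 0.41, adjusted p = 0.00591) and Rac2 by 0.97 (SE 0.18, adjusted p = 0.0113). Lcp1 fell by 1.21 (SE 0.31, limma adjusted p = 0.0309) and Pfn1 fell by 1.18 (SE 0.23, limma adjusted p = 0.0133). After quantile normalization Pfn1 differed by only -0.17. Such a fall was not particular to these 2 genes. Of 30 general actin cytoskeleton genes measured, 27 were lower and 3 higher at E12 in wild type. Their median difference was -1.14, against -0.01 over all genes. The Lcp1 call held in 9 of 15 settings, the Pfn1 call in 12 and the Rac2 call in 14, and those of Laptm5, Coro1a and Plek held in every setting in which they were tested. The dimmer probe sets of Sla and Ptprc also rose, by 2.31 (SE 0.17, adjusted p = 0.00103) and 0.94 (SE 0.17, adjusted p = 0.0105).

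The same step was then taken in knockout embryos. Its difference from the step in wild type equals the interaction above. Over all arrays that was called for 0 of the 28 probe sets and for 2 of all 45037. Plek was 0.11 higher at E12 (SE 0.41), Coro1a 0.83 higher (SE 0.25, limma adjusted p = 0.0525) and the dimmer Sla probe set 0.37 lower (SE 0.17). Fermt3 fell by 4.45 (SE 0.78, limma adjusted p = 0.00968), with both E12 knockout arrays below 4 and both E8.5 knockout arrays above 7. In wild type it differed by -0.62 (SE 0.78). A second Fermt3 probe set fell by 3.06 (SE 0.36, adjusted p = 0.0032) and another by 1.50 (SE 0.33, adjusted p = 0.0199), while 1443641_at, which hardly differed between genotypes, rose by 1.18 (SE 0.33, adjusted p = 0.0413). Lcp1 fell by 1.67 (SE 0.31, adjusted p = 0.0118), the brightest Sla probe set rose by 0.90 (SE 0.22, adjusted p = 0.029) and the brightest Laptm5 probe set rose by 2.42 (SE 0.30, adjusted p = 0.00367). In all, 4 of the 10 brightest probe sets were called in knockout, 2 higher (13.8% of all genes) and 2 lower (18.3%). The Laptm5 call held in all 15 settings. The Fermt3 and Lcp1 calls held in 12 of 15 and were lost without E12 knockout replicate 1, E12 knockout replicate 2 or E8.5 knockout replicate 2 (limma adjusted p up to 0.0743 and 0.0906), and the Sla call held in 7 of 14. Over all 28 probe sets 9 were called, as were 11539 of all 45037 probe sets. Without 1 of those 3 arrays fewer were called, both of the 28 and of all probe sets.

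Relatives of the 10 genes, many of them made outside blood, showed no common shift at E12. Of 23 listed paralogues 22 were measured, and 10 read lower and 12 higher in the E12 knockout, with a median difference of 0.01 and 0 past the t threshold. Against -0.63 for Rac2, the general Rac gene Rac1 differed by -0.19 (moderated t -0.69). Against -1.74 for Coro1a, Coro1b differed by -0.09 and Coro1c by -0.24, and against -3.68 for Fermt3, Fermt2 (kindlin-2, of adherent cells) differed by 0.19. Pls3, the plastin of solid tissues, differed by 0.24, and Pfn2, the neuronal profilin, by 0.29. General actin cytoskeleton genes had a median of 0.02 at E12, with 14 of 30 lower, 16 higher and Diaph1 alone past the threshold at -0.52 (moderated t -3.03).

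Further white-cell genes were counted from 2 other lists. Of 34 leukocyte signalling genes measured, 25 read lower in the E12 knockout with a median of -0.11 (51.2% of all genes read lower), and 3 passed the t threshold, as did 0.731% of all genes: Btk, a kinase of B and myeloid cells, by -1.52, Cd53, a leukocyte tetraspanin, by -0.67, and Fyb, an adaptor, by -0.66. Of 28 leukocyte actin and integrin genes 20 read lower with a median of -0.27, and 4 passed it: Itga2b, the platelet integrin alpha chain, by -1.91, Nckap1l, the blood form of a WAVE complex subunit, by -1.34, Itgb2, the leukocyte integrin beta chain, by -1.06, and Cotl1, an actin-binding protein, by -0.76. None of the 7 was called, and at E8.5 the 2 lists had medians of 0.04 and -0.03.

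**Figure D4:**
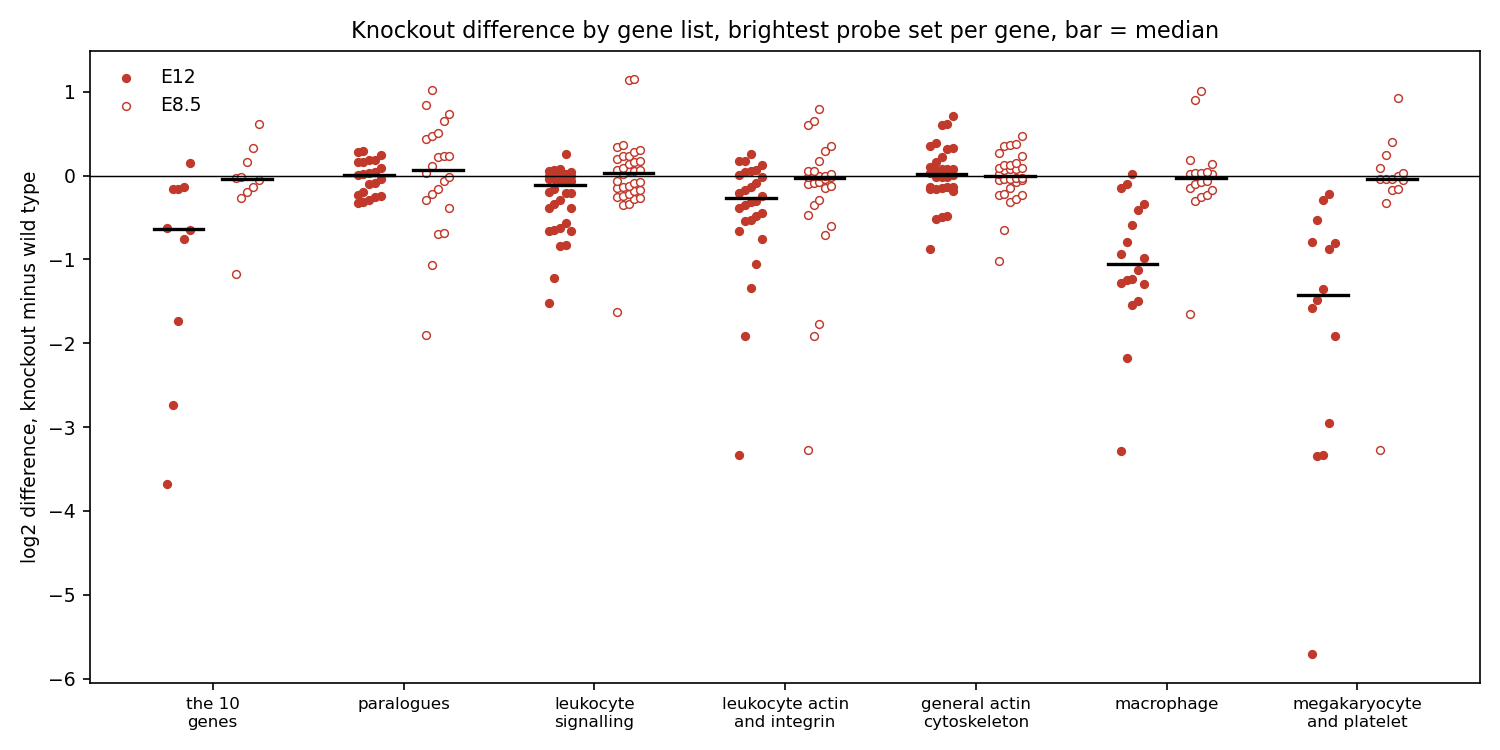
Difference in log2 intensity, knockout minus wild type (vertical axis), of each gene of 7 lists at E12 (filled) and E8.5 (open), with a bar at the median. At E12 the medians are -0.64 for the 10 genes, 0.01 for paralogues, -0.11 for leukocyte signalling, -0.27 for leukocyte actin and integrin, 0.02 for general actin, -1.05 for macrophage and -1.42 for megakaryocyte and platelet genes.

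Markers of macrophages, of megakaryocytes and platelets, and of granulocytes and mast cells were mostly lower at E12, as were the 10 genes. Over all genes 51.2% read lower, 0.731% passed the t threshold downward and 0.0275% were called lower. Of 18 macrophage markers, 17 read lower in the E12 knockout, 10 past the t threshold, with a median of -1.05. Of those 10, the 6 with the largest differences were Ctss at -3.29 (limma adjusted p = 0.00537), Fcgr3 at -2.17, C1qc at -1.50, Mpeg1 at -1.29, Tyrobp at -1.28 and Lyz2 at -1.23, and only Ctss was called. The list averaged 4.92 to 4.96 in E12 knockouts and 5.90 to 6.09 in E12 wild types. Of 14 megakaryocyte and platelet markers, all 14 read lower and 6 passed the threshold. Pf4 at -5.71, Ppbp at -3.34 and Tubb1 at -2.95 were called (limma adjusted p = 0.00176, 0.0325 and 0.0327), and Itga2b at -1.91, Gp9 at -1.35 and F2rl2 at -0.81 were not. The list averaged 5.06 in both E12 knockout arrays and 6.74 to 6.98 in E12 wild types. Granulocyte and mast cell markers averaged 4.86 to 4.91 in E12 knockouts and 5.26 to 5.83 in E12 wild types, with 11 of 13 lower and Mpo at -3.18, S100a8 at -1.74 and Prtn3 at -0.89 past the t threshold. Lymphocyte markers overlapped, at 4.80 to 4.87 in E12 knockouts and 4.71 to 5.06 in E12 wild types, and Rag1 alone passed it, upward, at 0.51. In a list of myeloid and other blood transcription factors, 15 of 18 read lower. Only Gata1 at -1.54, Myb at -1.37 and Gfi1b at -1.27 passed the t threshold, none of them specific to myeloid cells. Endothelial markers read lower in 9 of 11, with Emcn past it upward at 0.63. Red-cell markers read lower in 7 of 11, trophoblast and decidua markers in 5 of 8, yolk sac endoderm and liver markers in 4 of 10 and embryo proper markers in 11 of 17, with 0 past it in these 4 lists. Intensities have no zero and no detection calls were used here, so no marker can be called absent. The part of these cell types in the differences of the 10 genes was not tested.

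Across the 8 arrays, the genes whose profile was most like the mean profile of the 10 included markers of platelets, macrophages and granulocytes. Of 8375 genes with an SD of at least 0.5, the 10 with the highest Pearson r were Tubb1 (0.96), C1qb (0.95), Ncf1 (0.95), Pf4 (0.94), Ms4a6b (0.93), Ctss (0.92), F13a1 (0.92), Lyz1 (0.92), Pdia2 (0.91) and Mpo (0.91). Of these, 5 stand in a marker list used here: Tubb1 and Pf4 (platelets), C1qb and Ctss (macrophages) and Mpo (granulocytes). The points are 4 pairs of arrays that share stage and genotype, so r describes a pattern over few groups. The mean profile includes each of the 10 genes, so each is compared in part with itself. Among them, Plek (0.90), Coro1a (0.80) and Rac2 (0.77) followed the mean most closely, and Pfn1 (0.12) and Lcp1 (0.02) least.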

How the data were processed

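RNA of 8 arrays (4 groups, 2 biological replicates each per the study's methods) was extracted with Trizol and amplified in 2 rounds from 100 ng. The authors background-corrected, normalized and summarised the probes by RMA and deposited linear intensity values per probe set; neither the RMA version nor whether all arrays were normalized together is stated in the sources used here. The log2 of each intensity was taken with no pseudocount and no filter on dim probe sets. Of 45101 probe sets, 64 controls were left out. The platform annotation, with symbols updated through RefSeq, gave 34945 probe sets 1 symbol, 932 several (not named) and 9160 none.

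A mean per group was estimated from all 8 arrays with lmFit and eBayes (limma 3.58.1, R 4.3.3), with Benjamini-Hochberg adjustment over 45037 probe sets and a threshold of 0.05; the study's threshold of an absolute t above 3 was a second rule. P-values reflect only the spread among these arrays, and 2 arrays per group limit the precision. The 10 genes and the 14 other lists were chosen with earlier results of these data known. All 10 genes and their probe sets are named; from other lists, genes past the t threshold at E12, up to 6 by size, are named, and some paralogues; the rule also allowed the 2 of highest absolute t in a list with none past it, which are not named. The fit was tested on simulated data. Alternatives were quantile normalization, median centring, a pseudocount of 16, a dim filter, each stage alone, an intensity trend with robust eBayes, the mean of a gene's probe sets, a replicate block and leaving out each array.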

Additional observations from a re-analysis of the deposited data

Results flagged for a closer look

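In 4 probe sets the knockout arrays lay on one side of the wild-type arrays at E12 and on the other side at E8.5. The knockout was below at E12 and above at E8.5 in all 4, a pattern that 1.31% of all 45037 probe sets showed. The genes were proposed with the E12 comparison known, and 22 of the 28 probe sets had the knockout below at E12. The count of 4 therefore describes them and supports nothing further. The E12 difference minus the E8.5 difference was -2.68 for Sla 1420819_at (limma adjusted p = 0.188), -0.52 for Sla 1447813_x_at, -1.14 for Laptm5 1417721_s_at and -0.77 for Laptm5 1447742_at. The interaction was not called for any of them over all 8 arrays, except for Sla 1420819_at with an intensity trend and robust eBayes. The absolute t of the interaction passed 3 for Sla 1420819_at and Laptm5 1417721_s_at. At E8.5 the differences were 0.11, 0.08, 0.09 and 0.61, each less than 3 times its SE.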

How the results depend on the processing

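The median E12 difference of the 10 genes was -0.80 to -0.42 when 1 array was left out, and the number past the t threshold was 3 to 5. That number was 5 as reported, 3 with an intensity trend and robust eBayes and 2 of the 6 genes left by the filter on dim probe sets. It was 7 with the mean of all probe sets of a gene, where Rac2 did not pass (-0.34, SE 0.17), so which genes pass depends on the choice of probe set. The E8.5 median ranged from -0.15 to 0.050 without 1 array. The median of the difference between stages was -0.75 to -0.32 without 1 array and -0.74 after quantile normalization. The median of E12 minus E8.5 was 0.44 to 0.69 in wild type and 0.16 to 0.27 in knockout without 1 array. With the dim filter it was 0.18 in wild type and -0.33 in knockout. The knockout stage median was 0.20 as reported, 0.093 with the mean of all probe sets of a gene, 0.12 with a pseudocount, 0.0083 after quantile normalization and -0.0092 after median centring, which moved the median of all probe sets to -0.20 in wild type and -0.18 in knockout, so its sign is not settled. For single genes, no value that passed a threshold as reported changed direction. Alternatives gave 156 values of single genes at E12, whether or not past the t threshold as reported. Of these, 14 dropped below it. With the mean of all probe sets of a gene, Sla (-0.73, SE 0.15), Ptprc (-0.63, SE 0.14) and Laptm5 (-1.12, SE 0.22) came to pass it. The brightest Sla probe set had differed by 0.15, so Sla also changed sign. The remaining values kept their side of the threshold.

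Replicate numbers did not count as pairing, with 2 pairs per stage (correlation of deviations 0.17 at E12 and 0.37 at E8.5). With the replicate block, 0 probe sets were called at E12 and Sla 1420819_at had a limma adjusted p of 0.147; the number of the 10 genes past the t threshold at E12 was again 5 and the median -0.64. The SD of the difference between replicates was 0.227 in knockout and 0.490 in wild type at E12, and 0.403 in knockout and 0.833 in wild type at E8.5, while the fit used 1 shared spread. Signal over background was not given, which limits what can be said of probe sets as dim as those of Vav1.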
